A study of Mus musculus with 8 samples.

Results

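Integrins are the transmembrane receptors by which chondrocytes, the cells of growing cartilage, hold on to the matrix they secrete. Each receptor is a pair of 1 alpha and 1 beta subunit. The alpha subunits encoded by Itga1, Itga2, Itga10 and Itga11 bind collagens, those of Itga3 and Itga6 bind laminins, and those of Itga5 and Itgav recognise the Arg-Gly-Asp motif of fibronectin, vitronectin and related proteins. All of these alpha subunits can pair with the product of Itgb1, and that of Itgav also pairs with several other beta subunits, the product of Itgb5 among them. In mouse cartilage, Itgb1 is known to be needed for the orderly columns of growth plate chondrocytes, and Itga10 is known as a collagen receptor found mainly on chondrocytes.

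The 10 subunit genes were followed through every probe set (a group of short probes that reports 1 transcript) annotated to one of these symbols alone. That gave 28 of the 45037 probe sets considered, for 9 of the 10 genes. No probe set was annotated to Itga11, so it has no value here. Itgb1 was read by 6 probe sets, Itgav by 5, Itga5 and Itgb5 by 4 each, Itga3 by 3, Itga1 and Itga6 by 2 each, and Itga2 and Itga10 by 1 each. Of the 28, 17 probe sets of 7 genes were bright enough for the fit across all probe sets, which took those with a mean signal over all arrays above the median of 105.9. Itga2 and Itga3 had no probe set above that bound.

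The cells were primary chondrocytes released by collagenase and trypsin from rib cages of FVB mouse embryos at E18.5. Embryos of 4 litters were sorted into wild-type controls and Hoxd4 transgenics (Hoxd4 is a homeobox transcription factor), with 1 pool of each genotype per litter and 1 array per pool, 8 arrays in all. The promoter and cell type of the transgene, the number of embryos per pool and their sex were not stated in the labels. Replicate numbers below are those of the litters.

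Chondrocyte markers were present: all 12 chondrocyte genes on the array, among them Col2a1, Acan and Sox9, were bright enough for the fit. Their summed signal lay between 310922 and 343260 in controls and between 327149 and 352588 in transgenics. Of the 12, 10 were higher in transgenics (83.3%, beside 49.7% of all tested genes), none with an unadjusted p under 0.05 in limma. All 10 skeletal muscle markers and all 10 fibroblast and perichondrium markers were bright enough too. Passing this bound therefore does not set chondrocytes apart from other cells of the digest. The brighter of the 2 probe sets that Hoxd4 shares with its neighbour Hoxd3 had signals from 4.10 to 256 in controls and from 13.0 to 415 in transgenics. It was higher in the transgenic pool of 3 of 4 litters and lower in litter 4, so control and transgenic mean the labels throughout. The dimmer one was higher in 2 of 4 litters. Y-linked genes ran with the labels: Eif2s3y, Uty and Kdm5d had a mean log2 signal from 8.10 to 8.98 in controls and from 9.19 to 9.83 in transgenics. Xist, also sex-linked, had 5778, 9945, 13760 and 8098 in controls and 79.8, 3266, 47.2 and 8209 in transgenics. It was thus very low in the transgenic pools of litters 1 and 3, and near the control in litter 4. Sex and genotype cannot be told apart across these groups. Between the groups, 0 of 22518 probe sets passed the adjusted threshold of 0.05 in limma. The lowest adjusted value was 0.57. Without adjustment, 740 had a p under 0.05. In bulk RNA, fewer cells of a type and less RNA per cell cannot be told apart.

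None of the 17 integrin probe sets differed between control and Hoxd4-transgenic chondrocytes at an adjusted p of 0.05 in limma (background 0% of all tested probe sets). The 7 brightest probe sets, 1 per gene, had log2 fold changes (transgenic minus control, of signal + 32) between -0.03 for Itgb1 and 0.05 for Itga1. Among all 17, 7 were higher and 10 lower (51.2% of all tested probe sets were higher), with a median of -0.02 beside 0.0029 over all tested probe sets. The 95% interval lay within a 1.5-fold change for 15 of the 17, as it did for 85.5% of all tested probe sets, and its median reach to either side was 0.20 on the log2 scale, beside 0.27 over all of them. Each interval holds for its probe set alone and for the groups as labelled.

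**Figure D1:**
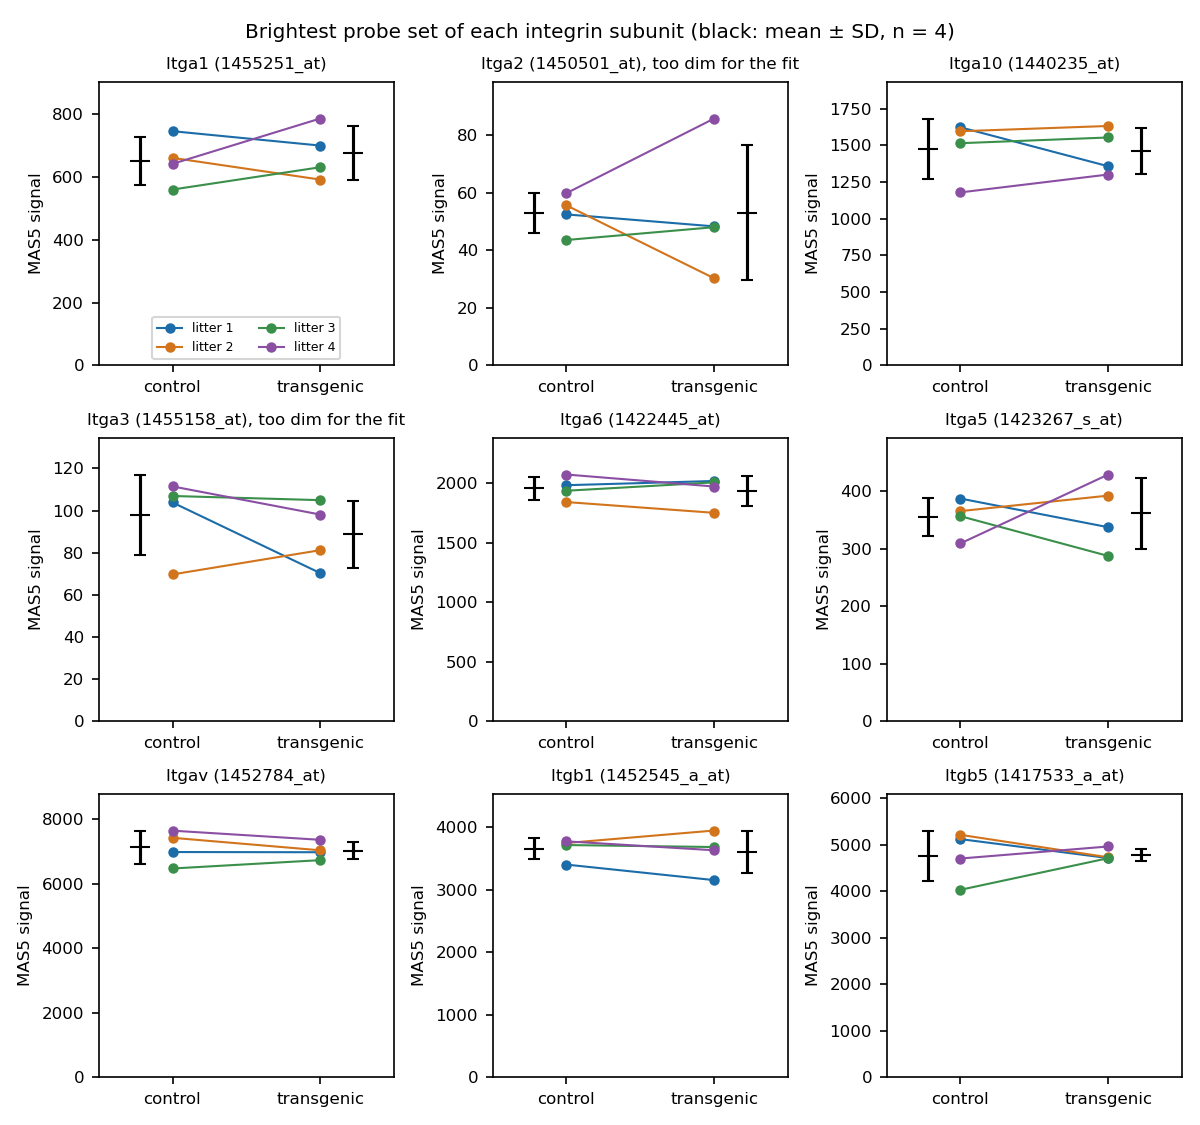
MAS5 signal (linear scale from 0) of the brightest probe set of each of the 9 integrin genes on the array, in control and transgenic pools. Coloured lines join the pools of 1 litter and black marks give the mean ± SD over 4 arrays. In each panel the control and transgenic points overlap, and Itga2 and Itga3 were too dim for the fit.

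Among the collagen receptors, Itga10 was measured by a single probe set (1440235_at). Its signal was 1622, 1595, 1514 and 1179 in the controls of litters 1, 2, 3 and 4, and 1357, 1631, 1553 and 1301 in the transgenics of the same litters. The groups overlapped throughout, with the pools of litter 4 the lowest of each group. Controls averaged 1478 ± 204 and transgenics 1461 ± 157 (SD, n = 4 each), which gave a log2 fold change of -0.01 (95% interval -0.25 to 0.22; limma, adjusted p = 0.9997). The transgenic pool was the higher one in 3 litters and the lower one in litter 1.

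Itga1, whose product binds collagen IV and is also found on smooth muscle and capillary endothelium, was read by a bright and a dim probe set. On the brighter one (1455251_at) the controls had 745.5, 661, 559.7 and 641 and the transgenics 699.7, 591, 631 and 786. These values overlapped and ran upward in litters 3 and 4 and downward in litters 1 and 2, for a log2 fold change of 0.05 (95% interval -0.19 to 0.30). On the dimmer one (1439713_at) the controls had 131, 125, 123 and 116 and the transgenics 134, 141, 153 and 138. Here every transgenic pool lay above every control pool, the closest values being those of litter 1. Controls averaged 124 ± 5.99 and transgenics 142 ± 8.22 (SD, n = 4 each), with a log2 fold change of 0.16 (95% interval -0.18 to 0.49; limma, adjusted p = 0.9997). The exact two-sided permutation p was 0.029 over all 70 assignments of the labels, the smallest possible, and was not adjusted over the 28 probe sets tried.

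The exact test ignores the litters. With labels exchanged only within litters the p was 0.13, which is the smallest that 4 litters allow. The call of the exact test ended without control replicate 4 (log2 difference 0.13) or transgenic replicate 3 (0.13), with p = 0.057 in both, although the groups still did not overlap. It ended with quantile normalization as well (0.18, exact permutation p = 0.057).

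Itga2, the other collagen receptor on the array and best known from platelets and epithelia, was dim. Its probe set had signals of 52.4, 55.6, 43.6 and 59.8 in controls and 48.3, 30.3, 48.0 and 85.7 in transgenics, so that the transgenic pools of litters 2 and 4 held the lowest and highest values of all. The log2 difference was -0.03 (exact permutation p = 0.89).

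Of the laminin receptors, Itga6 was bright enough for the fit and Itga3 was not. Itga6 pairs with Itgb1 or with Itgb4, the latter in the hemidesmosomes of epithelia. Its brighter probe set (1422445_at) had 1982, 1840.5, 1936 and 2071 in controls and 2017, 1750.2, 2006 and 1971 in transgenics. The values overlapped and the pools of litter 2 were the lowest of both groups. Its estimate was -0.02 (95% interval -0.18 to 0.14). On 1422444_at, the signal was lower in the transgenic pool of all 4 litters, by 0.03, 0.04, 0.15 and 0.07 on the log2 scale, yet the groups overlapped and the log2 fold change was -0.07 (95% interval -0.27 to 0.12; limma, adjusted p = 0.9997).

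The 3 probe sets of Itga3 had mean signals over all arrays of 93.3, 42.1 and 13.7. The brightest (1455158_at) had 104, 69.7, 107 and 111 in controls and 70.4, 81.2, 105 and 98.1 in transgenics, which overlapped, litter 2 giving the lowest control and litter 1 the lowest transgenic value (log2 difference -0.10, exact permutation p = 0.51). The second (1460305_at) ranged from 5.28 to 87.9 among controls and from 13.7 to 47.7 among transgenics, with a log2 difference of -0.47 (exact permutation p = 0.31).

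Of the receptors for the Arg-Gly-Asp motif, Itga5, the fibronectin receptor subunit, had 4 probe sets that did not run together. The brightest (1423267_s_at, of a kind whose probes can match several transcripts) had 387, 366, 357 and 309.5 in controls and 338, 393, 288 and 429 in transgenics. Both the lowest and the highest values were transgenic, and the log2 fold change was 0.02 (95% interval -0.27 to 0.30). A dimmer one (1423268_at) had 71.6, 92.4, 92.7 and 96.0 in controls and 138, 124, 141 and 115 in transgenics. Every transgenic pool lay above every control pool, by at least 0.20 on the log2 scale within each litter. Controls averaged 88.2 ± 11.1 and transgenics 129 ± 12.1 (SD, n = 4 each), and the log2 fold change of 0.43 (95% interval 0.04 to 0.81) was the largest of the 17 integrin probe sets.

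That Itga5 probe set was also the only one of the 17 with an unadjusted p under 0.05 in limma, which 3.29% of all tested probe sets had (1.58% higher). It was the only one with the litter as a block too, where 5.54% of all tested probe sets had such a p. Its adjusted p in limma was 0.9997, or 0.89 with the litter as a block. It passed the bound on signal only through the transgenics, its control mean being under 105.9, so its place among the 17 and its p support nothing. The unadjusted p was above 0.05 with the Y-linked level as a covariate and without control replicate 1, transgenic replicate 1 or transgenic replicate 3. It was above 0.05 with any litter left out of the blocked fit too. The exact two-sided permutation p was 0.029, the smallest possible, and 0.13 with labels exchanged within litters. Another Itga5 probe set (1458996_at) had 176, 91.8, 104 and 96.2 in controls and 48.0, 110, 92.0 and 131 in transgenics, overlapping values in which litter 1 gave both the highest control and the lowest transgenic. The estimate was -0.24 (95% interval -0.79 to 0.31), but -0.07 without control replicate 1 and -0.03 without transgenic replicate 1, and it turned to 0.14 without litter 1 in the blocked fit. It passed the bound on signal only through the controls, as the transgenics averaged 95.3. The last one (1457561_at) was too dim for the fit, with a log2 difference of -0.21 (exact permutation p = 0.57).

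**Figure D2:**
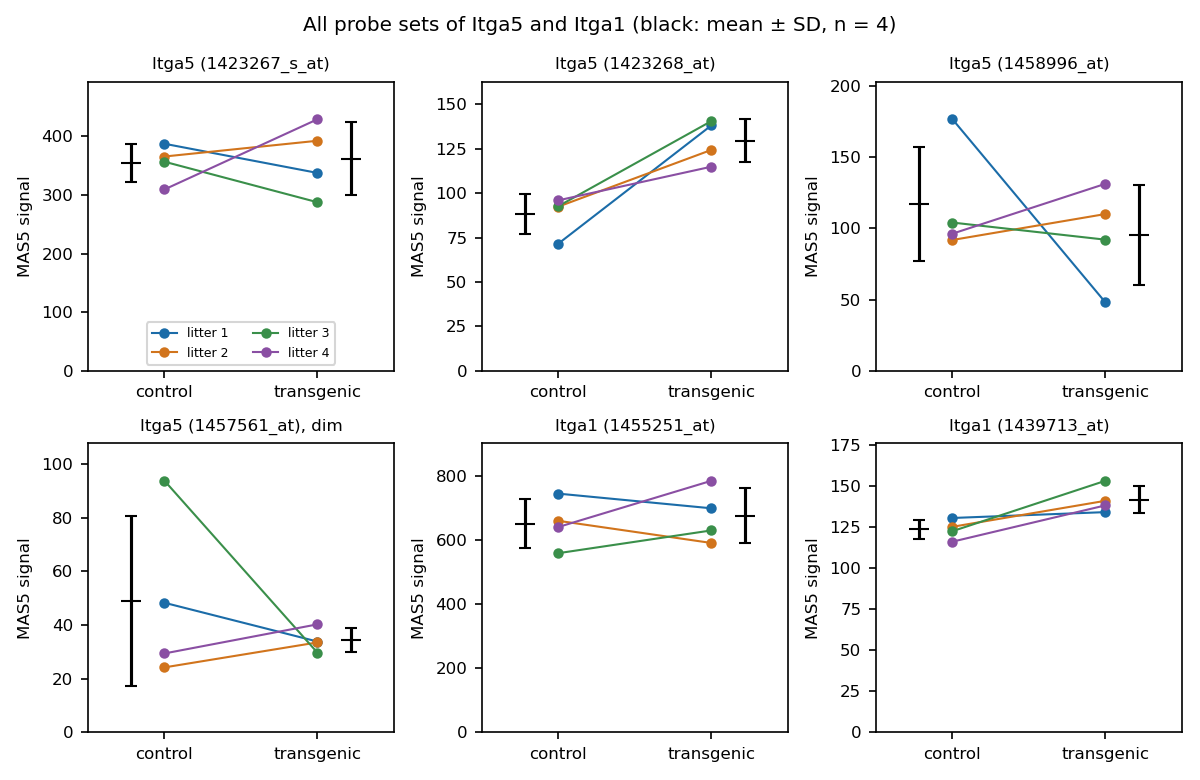
MAS5 signal (linear scale from 0) of all 4 probe sets of Itga5 and both of Itga1, with lines joining the control and transgenic pool of 1 litter and black marks for the mean ± SD over 4 arrays. The groups are apart for 1423268_at (71.6 to 96.0 against 115 to 141) and 1439713_at (116 to 131 against 134 to 153) and overlap for the other 4.

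Groups that do not overlap were thus seen for 2 of the 28 integrin probe sets, dim ones included, where 2.62% of all 45037 probe sets had them (1.1% with the transgenics higher). Both were higher in transgenics, both were dim, and in both genes the brightest probe set overlapped. Over the 8 arrays the Pearson correlation of 1423268_at with the other tested probe sets of Itga5 was -0.31 and -0.66, and that of the pair of Itga1 was 0.13. These are descriptions over 8 arrays that share 4 litters.

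Levels of some other genes moved with the labels beside these values. The 3 Y-linked genes were higher in the transgenic pool of every litter, and with their mean level as a covariate the log2 fold changes of 1423268_at and 1439713_at were 0.40 (95% interval -0.29 to 1.08) and 0.14. That mean level did not overlap between the groups, so the fit with it cannot tell sex from genotype. Of 9 tested endothelial markers 3 were higher and 6 lower, with summed signals from 1791 to 2433 in controls and from 1518 to 2153 in transgenics. These summed ranges overlapped. Cdh5, the cadherin of endothelial junctions, had the smallest p of the 9 (adjusted p = 0.9997 in limma). It had 189, 252, 261 and 304 in controls and 140, 165, 159 and 147 in transgenics. Every transgenic pool lay below every control pool, for a log2 fold change of -0.60 (95% interval -0.94 to -0.27). Cdh5 alone of the 9 had an unadjusted p under 0.05 in limma (11.1%, beside 2.95% of all tested genes). With the litter as a block, 2 of the 9 had one (22.2%, beside 5.07%). These were Cdh5 and Ecscr, both lower, with adjusted p values of 0.70 and 0.86 in that fit. The 3 higher ones were Cldn5, Tek and Pecam1, with log2 fold changes of 0.28, 0.06 and 0.02, and the tenth marker, Tie1, was too dim. The part of endothelial cells in the integrin values was not tested.

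Itgav, which pairs with several beta subunits, had its brightest probe set (1452784_at) at 6977, 7417, 6467 and 7638 in controls and 6970.2, 7031, 6725 and 7355 in transgenics. Litter 3 was lowest and litter 4 highest in both groups, and the transgenic values lay inside the range of the controls. The log2 fold change was -0.02 (95% interval -0.16 to 0.12), the narrowest interval of the 17. A second probe set (1421198_at) had 521, 696, 653 and 457 in controls and 611, 684, 666 and 636 in transgenics, with a log2 fold change of 0.17 (95% interval -0.10 to 0.44). The fold change was 0.26 without control replicate 2, 0.066 without control replicate 4, 0.075 without litter 4 in the blocked fit and 0.31 with the Y-linked level as a covariate. Its transgenic values were close together while those of the controls spread on either side of them. The other 3 probe sets of Itgav were too dim for the fit.

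Itgb1 encodes the beta subunit shared by most of the receptors above. Its brightest probe set (1452545_a_at) had 3403, 3748, 3715 and 3774 in controls and 3155, 3947, 3683 and 3632 in transgenics. The groups overlapped and litter 1 was lowest in both. The log2 fold change was -0.03 (95% interval -0.19 to 0.14; limma, adjusted p = 0.9997). The next (1426918_at) had 2862, 3175, 2743 and 3031 in controls and 2860.4, 3561, 2863 and 2847 in transgenics, for a log2 fold change of 0.03 (95% interval -0.15 to 0.22), with litter 2 highest in both groups.

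Another Itgb1 probe set (1427771_x_at, of a kind that can bind unrelated transcripts) averaged 257 ± 24.8 among controls and 247 ± 28.3 among transgenics (SD, n = 4 each). The remaining 3 of Itgb1, with those of Itga5 and Itgav that were too dim for the fit, came to 7 probe sets with mean signals from 16.4 to 103. Their log2 differences lay between -0.29 and 0.19 with exact permutation p values from 0.17 to 0.94.

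Itgb5, the beta subunit of one of the vitronectin receptors, had all of its 4 probe sets in the fit. The brightest (1417533_a_at) had 5121, 5213, 4032 and 4704 in controls and 4714, 4731, 4711 and 4963 in transgenics, which lay within the range of the controls (log2 fold change 0.01, 95% interval -0.16 to 0.18). The probe set with the narrowest spread over arrays (1417534_at) had 2653, 2585, 2569 and 2620.3 in controls and 2609, 2542, 2308 and 2320 in transgenics. It was lower in the transgenic pool of all 4 litters, most in litters 3 and 4, with 1 transgenic value inside the range of the controls. Controls averaged 2607 ± 37.6 and transgenics 2445 ± 153 (SD, n = 4 each), a log2 fold change of -0.09 (95% interval -0.24 to 0.05; exact permutation p = 0.086). Without transgenic replicate 1, which held that value, it was -0.12 and the groups no longer overlapped (exact permutation p = 0.029, the smallest possible). With any other array left out the exact permutation p was between 0.086 and 0.23. It was 0.13 with labels exchanged within litters. Another (1456195_x_at) was lower in all 4 litters as well, at -0.05 (95% interval -0.21 to 0.11), and the last (1456133_x_at) in 3 of 4, at -0.04 (95% interval -0.21 to 0.12).

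**Figure D3:**
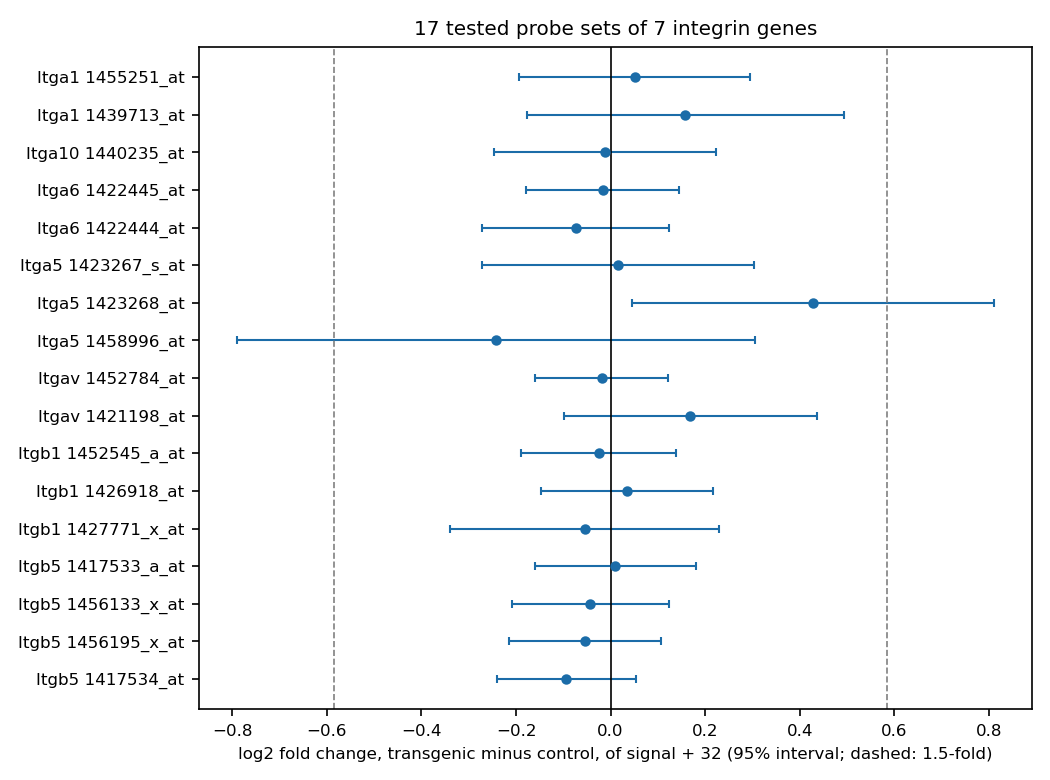
Log2 fold change (transgenic minus control, of signal + 32) with its 95% interval in limma for the 17 tested probe sets of 7 integrin genes, grouped by gene with the brightest probe set first. Dashed lines mark a 1.5-fold change, which 15 of the 17 intervals do not cross, and the interval of Itga5 1423268_at (0.04 to 0.81) is the only one that does not hold 0.

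In all, 5 of the 28 integrin probe sets ran the same way in all 4 litters (Itga1 1439713_at and Itga5 1423268_at higher, Itga6 1422444_at and Itgb5 1417534_at and 1456195_x_at lower), where 13.1% of all 45037 probe sets did (5.76% higher and 7.37% lower). Of the 28 probe sets, 26 had an exact permutation p of 0.086 or more.

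Bright integrin probe sets varied little over the 8 arrays. Across the 10 with a mean signal above 1000, the distance from the lowest to the highest array had a median of 0.30 on the log2 scale and ran from 0.20 (Itgb5 1417534_at) to 0.46 (Itga10). The median over all 6801 probe sets above that signal was 0.33. Probe sets of the same gene agreed only in part, with Pearson correlations over the 8 arrays from -0.66 to 0.87 and a median of 0.25 over 15 pairs. The highest value joined the pair of Itgb5 probe sets of the kind that can bind unrelated transcripts.

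Litters were compared next, with 2 arrays each and the genotype in the model. None of the 17 integrin probe sets differed between litters at an adjusted p of 0.05 in limma, where 0.484% of all tested probe sets did, and the lowest adjusted p was 0.28, for Itga10. An unadjusted p under 0.05 was found for 4 of the 17, against 14.6% of all tested probe sets. That count was 0 with no intensity trend, 3 with median centring and 6 with quantile normalization. It was 3 without litter 1, 2 without litter 2, 6 without litter 3 and 1 without litter 4. Over all 22518 tested probe sets the count was 3298 in the main fit. In these settings, in the same order, it was 2566, 3546, 3059, 2102, 2871, 3932 and 3046. The 4 of the main fit were Itga10 (litter means 1490, 1613, 1534 and 1240), Itgb5 1456133_x_at (4182, 4099, 4279 and 3602), Itga6 1422444_at (1669, 1378, 1569 and 1402) and Itgb1 1426918_at (2861, 3368, 2803 and 2939). Litter 4 was thus the lowest for Itga10 and for that Itgb5 probe set, and litter 2 the highest for Itgb1 and the lowest for Itga6.

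**Figure D4:**
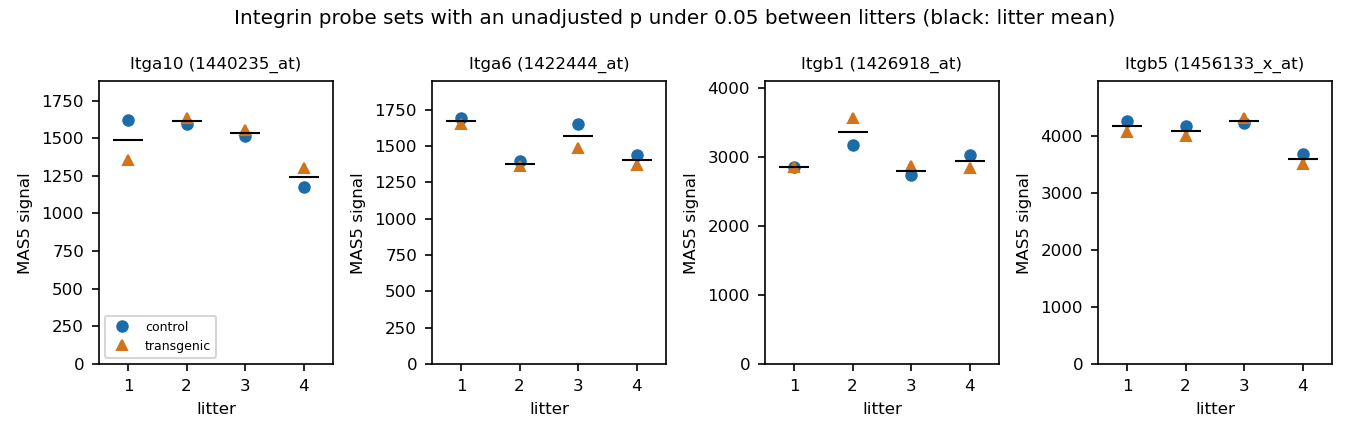
MAS5 signal (linear scale from 0) by litter for the 4 integrin probe sets with an unadjusted p under 0.05 between litters, with circles for control and triangles for transgenic pools and a black mark for the litter mean. In litter 4 both pools of Itga10 (1179 and 1301) lie below those of the other litters.

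As a description of likeness over the 8 arrays, the genes whose log2 signal ran most like that of Itga10 were Cnot8 (Pearson r = 0.98), Nt5dc3 (0.96) and Parn (0.96), and those most like the brightest Itgb1 probe set were Stk38 (0.99), Cnr1 (0.99) and Klf6 (0.98). These are the highest values among tested probe sets of other genes with 1 symbol, over 8 arrays that share 4 litters. The Cnr1 probe set was dim, with a mean signal of 130, and that of Klf6 was not the brightest of its gene. Between the brightest probe sets of the 7 integrin genes, the 21 correlations ran from -0.66 (Itga10 with Itga6) to 0.71 (Itga1 with Itgb5), and that of Itga10 with Itgb1 was 0.15.

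The remaining integrin subunits were mostly dim. Of 16 on the array, with the related gene Itgbl1 counted among them, 6 entered the fit, Itgbl1 included. None passed the adjusted p or an unadjusted p of 0.05. Of these 6, 5 were higher and 1 lower, with a median log2 fold change of 0.07 beside -0.0008 over all 11013 tested genes. Itga2b, a platelet subunit, had the smallest p, with averages of 280 ± 53.5 for controls and 214 ± 40.8 for transgenics (SD, n = 4 each) and an estimate of -0.34 (95% interval -0.69 to 0.0026). Itga9, a tenascin and osteopontin receptor subunit, was at 0.16 (95% interval -0.18 to 0.50), and Itga7, a laminin receptor subunit of skeletal muscle, at 0.08 (95% interval -0.17 to 0.34).

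Itgbl1, which encodes a secreted protein related to beta subunits, differed widely between arrays. It had 677, 1746, 1676 and 816 in controls and 861, 2016, 1431 and 1045 in transgenics, so that litters 2 and 3 were high and litters 1 and 4 low in both groups (log2 fold change 0.16, 95% interval -0.47 to 0.80). Leukocyte subunits stayed dim, with mean signals of 24.9 for Itgam, 26.8 for Itgb2, 49.4 for Itgax and 67.1 for Itgal, as did Itgb4, the partner of Itga6 in epithelia, at 25.3.

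Matrix ligands of integrins gave 21 higher and 6 lower of 27 tested (77.8% higher, beside 49.7% of all tested genes), with a median log2 fold change of 0.03. None passed the adjusted p in limma and none had an unadjusted p under 0.05. With the litter as a block, Ccn1 alone had an unadjusted p under 0.05 (adjusted p = 0.89 in limma), which 5.07% of all tested genes had. The smallest p values belonged to Ccn1, a matricellular ligand (log2 fold change 0.12, 95% interval -0.02 to 0.26), Lama4, a laminin chain (0.09, 95% interval -0.06 to 0.23), Fn1, which encodes fibronectin (0.07, 95% interval -0.05 to 0.18), and Col11a1, a chain of a minor cartilage collagen (0.06, 95% interval -0.05 to 0.17). Fn1, the ligand of the Itga5 receptor, averaged 26466 ± 1632 for controls and 27653 ± 335 for transgenics (SD, n = 4 each) and was higher in the transgenic pool of all 4 litters. Col2a1, the main collagen of cartilage and a ligand of the Itga10 receptor, was at 0.03 (95% interval -0.16 to 0.22). Col2a1, Col9a1, Col9a2 and Comp were counted among the chondrocyte markers too.

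Adaptors and activators inside the cell gave 15 higher and 13 lower of 28 tested (53.6% higher, beside 49.7% of all tested genes). Their median was 0.0058, with none of them past the adjusted p or an unadjusted p of 0.05. With the litter as a block, 2 of the 28 had an unadjusted p under 0.05 (7.14%, beside 5.07% of all tested genes). They were Tln2 and Slc3a2, which encodes a membrane protein that binds beta subunits (-0.15, lower in the transgenic pool of all 4 litters), both with an adjusted p of 0.89 in limma. Tln2, one of the talins that switch integrins on, had 526, 529, 496 and 496 in controls and 656, 670.0, 529 and 540.3 in transgenics. Each transgenic pool lay above every control pool, although that of litter 3 did so narrowly, and the log2 fold change was 0.21 (95% interval -0.02 to 0.43). Groups without overlap, in either direction, were seen for 2.62% of all 45037 probe sets. Actn1, an actin crosslinker of focal adhesions, was at -0.12 (95% interval -0.27 to 0.03), Sharpin, an inhibitor of integrin activation, at -0.14 (95% interval -0.35 to 0.08), and Rsu1, a partner of the ILK complex, at -0.10 (95% interval -0.25 to 0.05). Ilk, Lims1 and Parva, whose products form that complex, were at 0.0026, -0.0009 and -0.09, and Fermt2, the kindlin of most adherent cells, at 0.03.

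**Figure D5:**
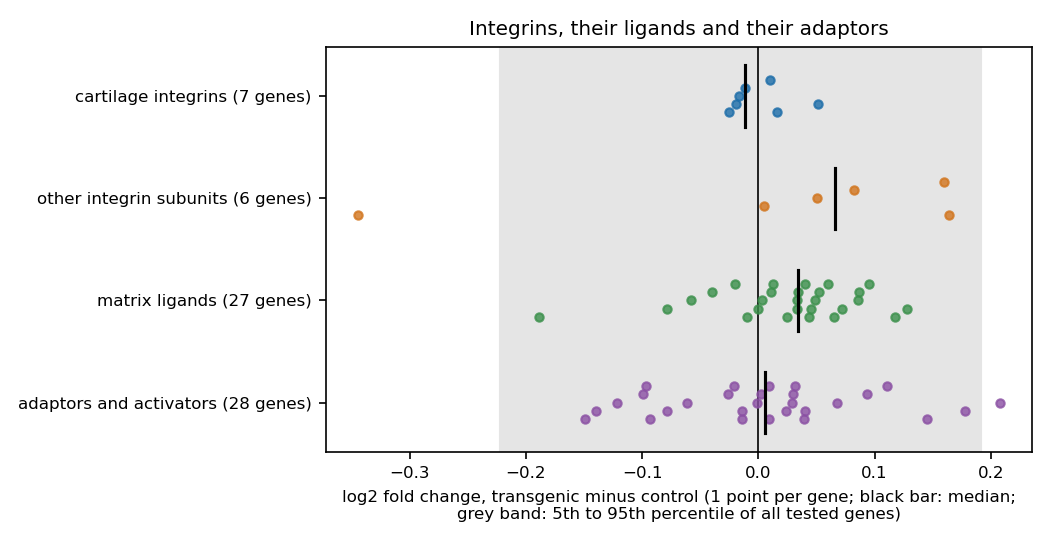
Log2 fold change (transgenic minus control) of the brightest tested probe set of each gene, for 7 cartilage integrins, 6 other integrin subunits, 27 matrix ligands and 28 adaptors and activators, with black bars at the medians. The related gene Itgbl1 is counted among the other integrin subunits. The grey band spans the 5th to the 95th percentile of all tested genes (-0.22 to 0.19), and the 7 cartilage integrins lie between -0.03 and 0.05.

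Markers of other cells that a rib digest can hold and that carry integrins of their own were present in both groups. Summed over the tested markers, skeletal muscle had signals from 21689 to 31191 in controls and from 20911 to 28498 in transgenics (7 of 10 higher), smooth muscle and pericytes from 11866 to 13056 and from 12246 to 13377 (5 of 7 higher), and fibroblasts and perichondrium from 155322 to 181351 and from 153024 to 186534 (6 of 10 higher). Macrophage and granulocyte genes spanned 2937 to 6698 and 3342 to 6733 (3 of 6 higher), erythroid and platelet genes 3722 to 7202 and 2795 to 6155 (1 of 4 higher), osteoblast genes 1356 to 1902 and 1415 to 1684 (3 of 5 higher), epithelial genes 944 to 1264 and 944 to 1543 (1 of 3 higher) and nerve and Schwann cell genes 4703 to 5739 and 4318 to 5597 (2 of 3 higher). Immediate early genes, known to respond when tissue is taken apart, were higher for 11 of 12 (beside 49.7% of all tested genes). Of these 12, 2 had an unadjusted p under 0.05 (16.7%, beside 2.95% of all tested genes), the transcription factor gene Klf4 at 0.29 and the phosphatase gene Dusp1 at 0.17, each with an adjusted p of 0.9997 in limma. The list had summed signals from 108106 to 121280 and from 106494 to 133703. All of these ranges overlapped between the groups, but ranges of sums do not show shifts within litters. With the litter as a block, 2 of the 4 erythroid and platelet genes had an unadjusted p under 0.05 in limma (50%). They were Alas2 and Slc4a1, both lower in all 4 litters. So had 2 of the 10 skeletal muscle genes (20%), Myf5 and Ckm, both higher in 3 litters. Over all tested genes the share was 5.07%. Each of the named genes had an adjusted p of 0.70 or more. The part of these cells and genes in the integrin values was not tested.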

How the data were processed

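Each one-colour Affymetrix array was deposited as intensity per probe set on a linear scale, which the authors made with MAS5 according to the submitters' processing notes. The MAS5 version was not stated there. The mean of each array without its top and bottom 2% was 500.0. MAS5 subtracts mismatch signal, so dim probe sets are noisy.

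Signals were used as log2(signal + 32), where 32 is the rounded median over arrays of the 25th percentile, without the 64 control probe sets that the manufacturer puts on the array. The constant shrinks fold changes of dim probe sets. The 22518 probe sets with a mean above the median were fitted with lmFit and eBayes (intensity trend) in limma 3.58.1 and R 4.3.3, with Benjamini-Hochberg adjustment over all of them, once for genotype and once for litter beside genotype. Exact permutation tests covered single probe sets. The fits were tested on simulated data. The number of arrays, 4 per group, limits the precision.

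Probe sets were named through GEO's platform annotation, with symbols looked up by gene identifier in a RefSeq table of GRCm38.p6, which changed 0; 34945 had 1 symbol, 932 several and 9160 none here. The brightest tested probe set stood for each gene. From each other list up to 4 genes with the smallest p were named, and the 3 genes most like Itga10 and Itgb1 by Pearson r; others were named after their values were seen, as ligands, partners or complex members of the integrins, or for their spread. Members and lists were chosen with earlier results of these data known.

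The replicate number is that of the litter, so same-numbered pools are paired. The correlations of their deviations from the group means were 0.28, 0.17, 0.04 and 0.14 in litters 1 to 4, with a mean of 0.16. The mean between litters was -0.05. Deviations cancel out within each group, so that value largely follows from the first mean and is no separate contrast. The chosen fit had no block; alternatives were the litter as a block, other constants, filters and normalizations, the Y-linked level as a covariate and each array or litter left out.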

Additional observations from a re-analysis of the deposited data

Results flagged for a closer look

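In 7 of the 56 groups of 4 arrays checked (28 probe sets, 2 groups each), 1 array lay far from the other 3, which chance alone gives in about 1 of 20 groups. For Itga5, control replicate 1 was the lowest on 1423268_at (71.6, the others 92.4 to 96.0) and the highest on 1458996_at (176, the others 91.8 to 104). For Itgb1, control replicate 1 was the lowest on 1452545_a_at (3403, the others 3715 to 3774), transgenic replicate 2 the highest on 1426918_at (3561, the others 2847 to 2863) and control replicate 2 the highest on the dim 1438119_at (45.7, the others 2.89 to 4.42). For Itgb5, transgenic replicate 4 was the highest on 1417533_a_at (4963, the others 4711 to 4731) and control replicate 4 the lowest on 1456133_x_at (3686, the others 4189 to 4278). Without control replicate 1 the log2 fold change of Itga5 1423268_at was 0.36.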

How the results depend on the processing

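No integrin probe set passed the adjusted p under any alternative run, and 5 of the 17 log2 fold changes kept their sign in all (Itgb5 1417534_at, Itgav 1421198_at, Itga6 1422444_at, Itga5 1423268_at and Itga1 1439713_at). The count of all probe sets called between genotypes was 0 with the replicate block, fixed or random, and 0 to 4 with arrays or litters left out, where 1 was called without transgenic replicate 4 and 4 without litter 4 in the blocked fit. In the blocked fit the number with an unadjusted p under 0.05 was 1248 against 740, and the block changed no adjusted call. The 109 called between litters became 30 with no filter, 0 with no intensity trend (2566 at an unadjusted p under 0.05), and 10 to 286 with a litter left out (10 without litter 1, 286 without litter 3, 70 without litter 4); the cause was not tested. The 2 integrin probe sets with an exact p under 0.05 became 1 with quantile normalization (Itga1 1439713_at, 0.18, p = 0.057), 0 with labels exchanged within litters as replicate block (0.43 for Itga5 and 0.16 for Itga1), where the smallest possible p is 0.13, and 1 to 3 with an array left out, the added one being Itgb5 1417534_at without transgenic replicate 1 and the range for Itga1 1439713_at being 0.13 to 0.18. With the Y-linked level as a covariate 5 values turned: Itgb5 1417533_a_at to -0.18, Itgb1 1426918_at to -0.082 and 1452545_a_at to 0.047, Itga1 1455251_at to -0.047 and Itga5 1458996_at to 0.0088. With quantile normalization Itga2 turned to 0.014. With arrays or litters left out, values that turned ranged from -0.067 to 0.060 for Itgb5 1417533_a_at, -0.045 to 0.030 for Itga6 1422445_at, -0.12 to 0.12 for Itga5 1423267_s_at, -0.045 to 0.075 for Itgb1 1426918_at, -0.13 to 0.068 for 1427771_x_at, -0.11 to 0.069 for Itga10, -0.070 to 0.037 for Itgb1 1452545_a_at, -0.064 to 0.015 for Itgav 1452784_at, -0.025 to 0.12 for Itga1 1455251_at, -0.092 to 0.015 for Itgb5 1456133_x_at, -0.089 to 0.00084 for 1456195_x_at, -0.44 to 0.14 for Itga5 1458996_at, -0.010 to 0.063 for Itga3 1421997_s_at and -0.20 to 0.11 for Itga2. Signal over background limits Itga2, Itga3 and the dimmer probe sets of Itga1 and Itga5.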
